A study of Homo sapiens with 12 samples.

Results

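SH-SY5Y neuroblastoma cells that met hydrogen peroxide (H2O2) for 72 h before retinoic acid were compared with cells that received retinoic acid alone. The pre-treatment experiment holds 6 of the 12 RNA-seq libraries of the series, namely 3 H2O2-treated and all 3 untreated controls, and every group was differentiated with all-trans retinoic acid (ATRA) for 7 days. H2O2 was given at 10 mM according to the design text and at 10 μM according to the methods, a discrepancy that the sources used here do not settle. The genes described are those whose 3 treated values all lie above, or all below, the 3 control values, so that control 3 stands on the same side as controls 1 and 2. Of 55765 gene symbols, 24743 passed the filter on low counts, and 4023 of these (16.3%) met that rule. The other 6 libraries, from cells given H2O2 together with ATRA for 7 days, have their own controls. They were used here to read the same genes a second time and, in a joint fit, to test and name genes whose response differed between the experiments.

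SH-SY5Y is a subclone of the SK-N-SH line, established from a bone marrow metastasis of a child's neuroblastoma, a tumour of the sympathetic nerve lineage. ATRA binds retinoic acid receptors, which act as transcription factors, and drives these cells out of the cell cycle towards a neuron-like state with long neurites. Neuroblastoma cells can take an adrenergic state, led by HAND and GATA factors, or a mesenchymal state with vimentin, collagens and CD44, and cultures can shift between the states. H2O2 is a membrane-permeable oxidant that engages the NRF2 antioxidant response, and its effects were read here only after the 7 days of ATRA that followed. All cultures come from 1 cell line, and the labels do not say whether replicates were separate cultures, so the p-values cover the spread between these samples, which may be technical.

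Control 3 and the pair of controls 1 and 2 stood apart from each other, which bears on every value that follows. Libraries held between 41780221 and 98287391 counts on genes. Loci of small structured RNAs (such as 7SL, 7SK, U and Y RNAs) took 1.63% and 2.96% of the counts in controls 1 and 2, 17.6% in control 3 and 13.3% to 15.1% in the treated libraries. Reads outside any gene amounted to 0.800 and 0.830 per gene read in controls 1 and 2, 0.200 in control 3 and 0.343 to 0.462 in the treated libraries. In the co-treatment libraries these values were 5.08% to 13.1% for small structured RNAs and 0.263 to 0.429 for reads outside any gene. On both measures controls 1 and 2 thus lay outside the range of all other libraries. Which of the controls are atypical was not tested. On the log2 scale over the genes tested, the Euclidean distance between controls 1 and 2 was 101. Control 3 lay 193 and 197 from these controls and only 117 to 147 from the treated libraries, which lay 84.1 to 105 from each other.

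The 4023 separated genes divided almost evenly, with 2039 higher (8.24% of the genes tested) and 1984 lower (8.02%) after H2O2. Had controls 1 and 2 stood alone, 7282 genes would have lain above them in all treated libraries. Control 3 was with the other controls for 2039 of those (28%), inside the range of the treated libraries for 2088 (28.7%) and above all treated libraries for 3155 (43.3%). For the 7058 genes below controls 1 and 2, the corresponding shares were 28.1%, 29.3% and 42.5%. Among the separated genes the difference was also smaller against control 3, since the higher genes had a median log2 ratio of 0.66 to controls 1 and 2 and 0.48 to control 3, and the lower genes had -0.62 and -0.37.

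**Figure D1:**
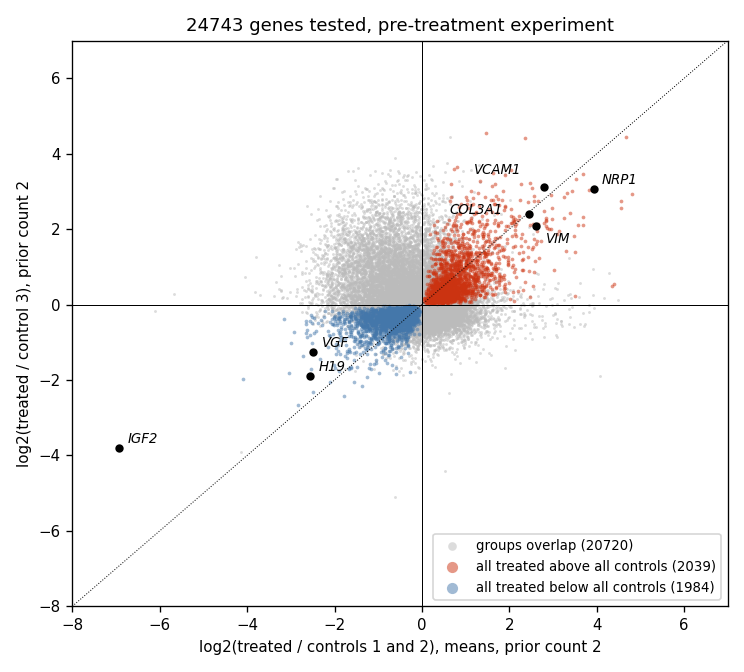
Each point is 1 of the 24743 genes tested, with the log2 ratio of the treated mean to the mean of controls 1 and 2 (horizontal axis) and to control 3 (vertical axis), prior count 2. Red and blue points are the 2039 higher and 1984 lower separated genes, grey points overlap between the groups, and the dotted line marks equal ratios. NRP1, COL3A1, VIM and VCAM1 lie far out against all controls, whereas many grey points lie in the upper left or lower right, where control 3 takes the opposite side from controls 1 and 2.

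Most separated genes differed by little. Levels are given as CPM, which is the share of a library's counts that fall on a gene after TMM scaling, a normalisation that centres most genes between libraries. The median absolute log2 fold change (log2FC) was 0.62 among the higher and 0.56 among the lower genes, and 544 and 380 of them had a log2FC beyond 1 in size. The gap, which is the lowest log2 CPM of the higher group minus the highest of the lower group, reached 1 for 99 higher and 13 lower genes. It stayed below 0.1 for 715 and 788 genes. Of the separated genes, 82 higher ones passed the filter on low counts through the treated libraries alone and 49 lower ones through the controls alone. At the edge of the rule, CASD1 was inside it with 161.2, 147.6 and 178.81 CPM in the controls and 201.9, 211.5 and 178.83 CPM in the treated libraries. IFT122 was just outside, because its first treated library at 33.877 CPM lay above control 3 at 33.875 CPM. At this edge the gap is far smaller than the spread inside either group.

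The higher and the lower genes differed in base composition. The longest annotated transcript had a median GC content of 42.2% for the separated higher protein-coding genes, 54.8% for the lower ones and 48.4% for all 14504 tested protein-coding genes with a value. Across libraries, genes of high GC content stood above genes of low GC content by 0.33 and 0.16 log2 units in controls 2 and 3, and by -0.04 in control 1. In the treated libraries the same difference was -0.20, -0.04 and -0.22. With a GC offset per library, chosen after seeing the data, 1016 of 1374 higher and 1026 of 1551 lower genes were still separated in the same direction, among 14516 genes annotated as protein coding with clone-based names included. Chromosomes 22 and 19, which are rich in GC, held the largest shares of lower genes among chromosomes, with 15.5% and 14.3% of their tested genes, against 3.46% and 4.75% higher. On chromosome 13, 12.9% were higher and 3.58% lower. Protein-coding genes made up 1371 of the higher and 1553 of the lower genes, and most others had clone-based names or were noncoding.

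With all 6 libraries in edgeR's quasi-likelihood test, 6 genes were called at a Benjamini-Hochberg FDR below 0.05 with an absolute log2FC above 1 (0.0242% of the genes tested). All were higher after H2O2, namely VIM, COL3A1, NRP1, ITGA4, EYA4 and C8orf4. At an unadjusted p below 0.05 there were 996 higher (4.03%) and 1780 lower genes (7.19%). The FDR of the 6 genes lay between 0.0443 and 0.0499, and the count was 0 when any library other than control 3 was left out and 2952 without control 3.

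VIM encodes vimentin, the intermediate filament protein of mesenchymal cells, and lies at chr10:17270240-17279592 on hg19. It had 3.02, 3.99 and 5.13 CPM in the controls and 23.4, 19.6 and 22.1 CPM after H2O2. The lowest treated library was thus well above the highest control, which was control 3. The log2FC was 2.42 ± 0.24 (SE, n = 3 per group), a 5.36-fold increase with an FDR of 0.0443 in edgeR's quasi-likelihood test. A gene for an antisense RNA begins beside VIM, and reads of such pairs cannot be told apart if counting ignored strand, which is not given in the sources used here.

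COL3A1 encodes the chain of type III collagen, a fibrillar collagen of connective tissue and vessel walls, at chr2:189839099-189877472. Its values were 21.9, 13.1 and 18.2 CPM in the controls and 114.1, 87.2 and 86.8 CPM in the treated libraries. No control came near a treated value, and control 3 lay between the other controls. The log2FC was 2.44 ± 0.24 (SE), a 5.42-fold increase (FDR 0.0443, edgeR).

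NRP1 encodes neuropilin-1, the co-receptor through which class 3 semaphorins steer axons and VEGF acts on vessels (chr10:33466420-33625190 on the minus strand). Controls had 0.518, 0.388 and 0.845 CPM and treated libraries 7.00, 6.02 and 9.01 CPM. In raw counts these were 29, 18 and 54 against 659, 405 and 706, so the difference does not rest on a few reads. The log2FC was 3.64 ± 0.36 (SE), a 12.4-fold increase (FDR 0.0443, edgeR).

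ITGA4 encodes integrin α4, which pairs with β1 or β7 chains to bind VCAM-1 and fibronectin and marks migrating neural crest cells (chr2:182321929-182403667). It had 2.07, 2.01 and 1.72 CPM in the controls and 8.82, 8.11 and 9.26 CPM after H2O2. Both groups were tight, with a control mean of 1.93 ± 0.187 CPM and a treated mean of 8.73 ± 0.581 CPM (SD, n = 3). The log2FC was 2.17 ± 0.22 (SE), a 4.51-fold increase (FDR 0.0443, edgeR).

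VCAM1, which encodes that ligand of integrin α4, was separated as well. Its values were 0.250, 0.388 and 0.250 CPM in the controls and 2.53, 2.26 and 2.39 CPM in the treated libraries. With a log2FC of 3.01 ± 0.35 (SE) and an FDR of 0.0697 (edgeR) it was not called. The receptor and its ligand were thus both apart in all 6 libraries, by 4.51-fold and 8.08-fold.

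EYA4 encodes a transcriptional coactivator and phosphatase of the eyes absent family, known for its part in hearing and heart function (chr6:133561652-133853266). It had 2.61, 2.01 and 2.19 CPM in the controls and 11.3, 9.26 and 9.47 CPM after H2O2. Control 3 again lay between controls 1 and 2. The log2FC was 2.14 ± 0.23 (SE), a 4.41-fold increase (FDR 0.0499, edgeR).

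C8orf4, now named TCIM, encodes a small protein linked to Wnt signalling and to endothelial inflammation (chr8:40011001-40012829). It had 1, 0 and 1 raw counts in the controls and 90, 65 and 73 in the treated libraries. Treated libraries agreed closely at 0.956, 0.966 and 0.931 CPM. The pooled ratio was 79.0 with a 95% exact interval from 21.6 to 656, which covers counting error only, and the quasi-likelihood test gave an FDR of 0.0499 (edgeR). This is the widest gap of any separated gene, at a level that is barely detected in the controls. C8orf4 passed the filter on low counts through the treated libraries alone, so the filter fixed its place above the controls.

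Among protein-coding genes with at least 5 CPM in the higher group, the 12 with the widest gap were the 5 called genes other than C8orf4 and ANKRD1, CPA4, PRSS23, TGFB2, PTRF, MGP and PHLDB2. ANKRD1, a stretch-responsive ankyrin repeat protein and a known target of the coactivators YAP and TAZ, had 0.643, 0.108 and 1.38 CPM in the controls and 12.7, 8.76 and 6.90 CPM after H2O2. The upstream coactivator YAP1 had 3, 4 and 4 raw counts in the controls and 93, 14 and 46 in the treated libraries. YAP1 passed the filter on low counts through the treated libraries alone, so the filter fixed its place above the controls. WWTR1, the gene of TAZ, overlapped with 3.93, 4.34 and 3.25 CPM against 5.11, 4.35 and 3.30 CPM (log2FC 0.15). TGFB2, a transforming growth factor β ligand, had 1.00, 1.60 and 0.892 CPM against 6.68, 5.54 and 6.67 CPM, with control 3 the lowest of all (log2FC 2.44 ± 0.30, SE; FDR 0.0778, edgeR).

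MGP encodes matrix Gla protein, an inhibitor of calcification. It had 4.54, 2.50 and 6.16 CPM in the controls and 76.0, 58.2 and 17.5 CPM in the treated libraries. Treated library 3 thus stood well below the other treated libraries but still above every control. PTRF, now CAVIN1, builds caveolae and had 1.45, 0.842 and 1.5 CPM against 8.59, 6.66 and 5.04 CPM. PHLDB2, a protein of the cell cortex that anchors microtubules near adhesions, had a mean of 4.12 ± 0.713 CPM in the controls and 17.0 ± 3.99 CPM after H2O2 (SD, n = 3). The secreted protease PRSS23 and the carboxypeptidase CPA4 were separated by gaps of 1.90 and 2.21 log2 units. None of these 7 genes passed the FDR threshold with all 6 libraries, and their FDR lay between 0.0778 and 0.266 (edgeR).

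**Figure D2:**
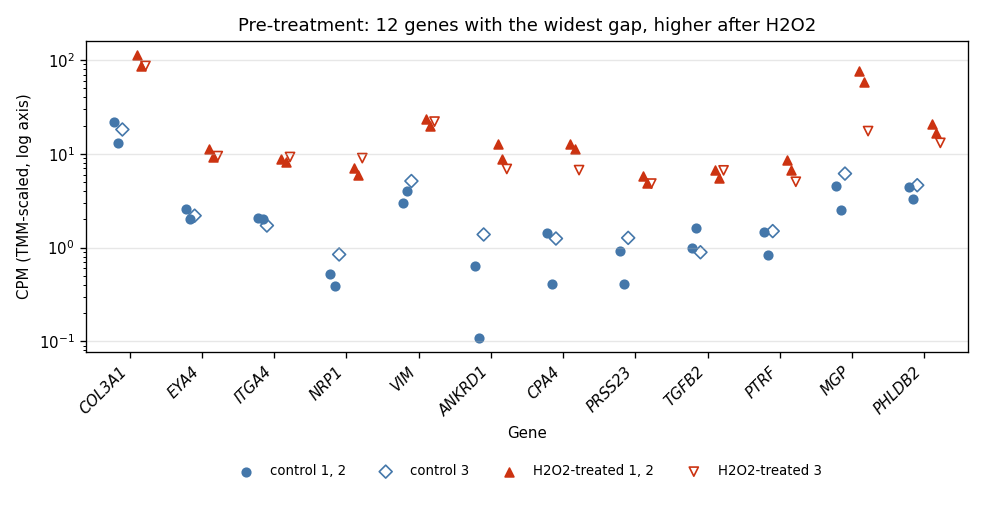
TMM-scaled CPM on a log axis for the 12 protein-coding genes with the widest gap among those higher after H2O2, with 1 symbol per library (blue circles controls 1 and 2, blue diamond control 3, red triangles treated libraries). In every gene the 3 treated values lie above the 3 control values, and treated library 3 falls farthest below the other treated libraries for MGP (17.5 against 76.0 and 58.2 CPM).

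Promoter sequences are shown for CPA4 and ANKRD1, which hold a match to the AP-1 motif, and for the called gene VIM, which holds none of the motifs searched. The motifs were AP-1 (TGANTCA), the core of the antioxidant response element (TGACNNNGC), the TATA box (TATAAA) and the direct repeat DR5 of retinoic acid receptors, on both strands and with overlaps allowed. Each line gives the 250 bases before the RefSeq start on GRCh38.p14, 5′ to 3′ on the strand of the gene, with every match in capitals. CPA4 lies at chr7:130292911-130293160 (plus strand), ANKRD1 at chr10:90921088-90921337 (minus strand) and VIM at chr10:17227991-17228240 (plus strand).
CPA4: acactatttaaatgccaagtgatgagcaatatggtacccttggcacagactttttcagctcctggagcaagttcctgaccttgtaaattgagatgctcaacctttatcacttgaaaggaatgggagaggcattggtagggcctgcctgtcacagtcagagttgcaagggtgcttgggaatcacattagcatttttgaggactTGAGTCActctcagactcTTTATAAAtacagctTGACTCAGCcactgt
ANKRD1: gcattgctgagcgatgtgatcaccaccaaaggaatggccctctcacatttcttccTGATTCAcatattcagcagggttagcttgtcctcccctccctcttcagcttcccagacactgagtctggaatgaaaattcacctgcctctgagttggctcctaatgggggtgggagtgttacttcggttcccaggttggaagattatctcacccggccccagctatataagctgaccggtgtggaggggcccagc
VIM: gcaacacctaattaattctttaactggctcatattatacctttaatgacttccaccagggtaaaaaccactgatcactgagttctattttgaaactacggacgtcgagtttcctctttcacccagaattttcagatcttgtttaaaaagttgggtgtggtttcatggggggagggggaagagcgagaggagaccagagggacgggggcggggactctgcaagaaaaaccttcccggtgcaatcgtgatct

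In CPA4 the AP-1 matches begin 48 and 15 bases before the start, and the second overlaps the match to the antioxidant core. The TATA box match of CPA4 begins 30 bases before the start on the minus strand and 28 bases on the plus strand, the usual place of such a box. The AP-1 match of ANKRD1 begins 195 bases before the start. Of the 25 genes called or with the widest gap in either direction, 18 had a promoter in the table. Counted by the first promoter entry of each gene over 300 bases, AP-1 was matched in 2 of 8 higher and 0 of 10 lower genes, against 7.71% of all 35116 promoters. Over all entries of these genes it was matched in 2 of 12 and 1 of 16, the last being another entry of BAHD1. The antioxidant core was matched in 1 of 8 and 2 of 10 (13.3% of all), the TATA box in 2 of 8 and 2 of 10 (11.5%), and DR5 in none (0.0057%). With so few genes these counts describe letters in a window and nothing more.

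Among the lower genes, no gene passed the FDR threshold. IGF2, the imprinted insulin-like growth factor 2, had the widest gap among the 12 named protein-coding genes (chr11:2150342-2179621). Its values were 1.93, 75.3 and 4.41 CPM in the controls and 0.149, 0.253 and 0.459 CPM in the treated libraries. The groups did not overlap, but control 2 alone held most of the control signal, and the log2FC of -6.57 ± 1.47 (SE) had an FDR of 0.320 (edgeR). H19, the noncoding RNA that neighbours IGF2 and shares its imprinting control, had 134.2, 848.0 and 309.6 CPM in the controls and 67.0, 99.1 and 84.0 CPM after H2O2. Here, too, control 2 was the highest library, and the other controls were still above all treated ones.

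The remaining lower genes were more even across the controls. UNC5B, a dependence receptor for netrin, had 828.8, 753.5 and 630.1 CPM in the controls and 336.9, 378.2 and 304.1 CPM after H2O2 (log2FC -1.12 ± 0.20, SE; FDR 0.242, edgeR). EPHB2, a receptor tyrosine kinase for ephrin-B ligands, had 120.4, 124.5 and 117.8 CPM against 68.6, 74.7 and 56.2 CPM. ROR2, a Wnt5a receptor, had 47.0, 58.5 and 46.2 CPM against 22.9, 25 and 27.6 CPM. In all 3 receptors control 3 was the lowest control, yet it lay above every treated library.

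VGF, a neuropeptide precursor induced by nerve growth factor, had 609.6, 1265.0 and 404.1 CPM in the controls and 148.1, 241.4 and 114.0 CPM after H2O2. Control 2 was the highest of the controls by far, and the log2FC of -2.18 ± 0.46 (SE) had an FDR of 0.317 (edgeR). WSCD2 had 78.8, 89.8 and 68.0 CPM against 38.5, 39.8 and 26 CPM. VASN, a cell surface protein that traps transforming growth factor β, had 39.1, 64.2 and 36.9 CPM against 14.2, 22 and 12.4 CPM. COL17A1, the transmembrane collagen of hemidesmosomes, had 8.85, 18.9 and 12.1 CPM against 2.77, 3.65 and 0.842 CPM. CMKLR1 (the chemerin receptor), FAM110A, BAHD1 (a chromatin silencing protein) and the clock-related factor TEF were separated by gaps of 0.64 to 0.79 log2 units, with FDR between 0.266 and 0.320 (edgeR).

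**Figure D3:**
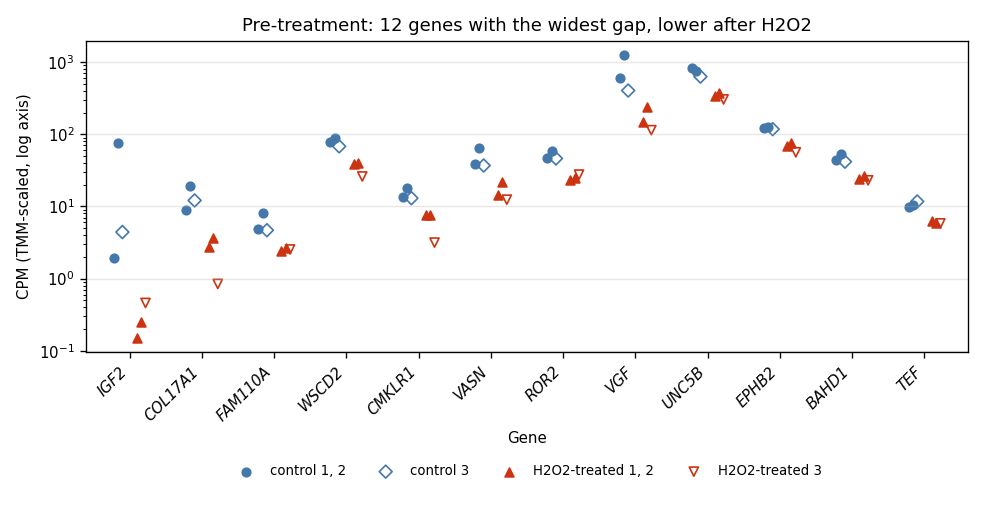
TMM-scaled CPM on a log axis for the 12 protein-coding genes with the widest gap among those lower after H2O2, with the symbols of the plot of higher genes. IGF2 spans 1.93 to 75.3 CPM among its controls, whereas EPHB2 spans only 117.8 to 124.5 CPM, and in every gene the treated values lie below the controls.

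Besides H19, the noncoding genes with the widest gaps included MIAT and several antisense RNAs. MIAT, a nuclear long noncoding RNA of neurons and heart, had 130.0, 105.1 and 81.4 CPM in the controls and 205.6, 204.0 and 194.4 CPM after H2O2 (log2FC 0.93 ± 0.20, SE; FDR 0.320, edgeR). Control 3 was the lowest control, so the ratio was larger against it than against controls 1 and 2. TMCC1-AS1, ANKRD10-IT1 and PPP1R26-AS1 were higher by log2FC of 1.21, 0.66 and 0.53. On the lower side, FAM222A-AS1 had a log2FC of -1.38, RNF144A-AS1 of -0.87 and CTBP1-AS2 of -0.52. The names with AS mark genes antisense to a partner, from which their reads cannot be told apart if counting ignored strand, and an IT transcript lies inside an intron of its host.

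The cell-state lists were separated unevenly. Of 25 mesenchymal-state genes, 19 passed the filter, and 8 of these (42.1%, against 8.24% of all genes) were separated higher, namely VIM, COL3A1, YAP1, CD44, FOSL2, TAGLN, ANXA2 and CYR61, whereas NOTCH2 and MYADM were separated lower (10.5%, against 8.02%). YAP1 passed the filter through the treated libraries alone, so its place among the 8 was fixed by the filter. Only VIM and COL3A1 were called. ANXA2, a membrane-binding annexin, had 15.5, 12.5 and 31.4 CPM in the controls and 93.3, 75.9 and 58.2 CPM after H2O2, and TAGLN, an actin-binding smooth muscle protein, had 4.04, 4.01 and 3.49 CPM against 10.3, 7.18 and 9.12 CPM. CD44, the hyaluronan receptor, had 1.41, 0.95 and 0.829 CPM against 3.05, 2.58 and 1.94 CPM. The summed level of the whole list overlapped, at 1264 to 1537 CPM in the controls and 954 to 1367 CPM in the treated libraries. Defining members such as PRRX1, ANXA1 and S100A10 were under the filter, each at 0.149 CPM or less in every library. In bulk RNA, more cells in a state and more RNA of these genes per cell cannot be told apart.

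The adrenergic list, which marks the labelled cell type, was well expressed apart from TH, which stayed under the filter with at most 0.259 CPM. Of 18 members tested, 4 were separated lower (22.2%, against 8.02% of all genes) and 1 higher (5.56%, against 8.24%), and the median log2FC of the 18 was -0.33, against -0.01 over all genes tested. GATA2, a zinc finger factor of the sympathetic lineage, had 802.0, 1014.4 and 739.1 CPM in the controls and 432.4, 502.0 and 484.7 CPM after H2O2. SLC18A1, a vesicular monoamine transporter, had 62.2, 93.3 and 72.2 CPM against 37.9, 44 and 34.7 CPM, and PHOX2A, a homeodomain factor of noradrenergic neurons, had 268.8, 329.2 and 315.9 CPM against 187.4, 208.9 and 134.4 CPM. DBH, which makes noradrenaline from dopamine, had 371.0, 1080.9 and 363.6 CPM against 126.6, 201.4 and 321.4 CPM, so that control 2 and treated library 3 were the highest of their groups. HAND1 was the member separated higher, with 26.8, 29.5 and 32.1 CPM against 37, 40.5 and 40.7 CPM. The summed level was 3336 to 4993 CPM in the controls and 2403 to 3151 CPM in the treated libraries, with no overlap. GATA2 and DBH, already picked by the rule, supplied much of this sum, so it is no separate evidence on the whole list. None of these members was called.

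The neuronal markers gave a smaller picture. MAPT, the tau protein, had 17.9, 29.4 and 13.7 CPM in the controls and 11.4, 12.5 and 12.5 CPM after H2O2, and SV2A, a synaptic vesicle protein, had 99.8, 117.2 and 92.3 CPM against 89.6, 82.8 and 62.2 CPM. For both, control 3 was the control nearest to the treated libraries, with gaps of only 0.13 and 0.04 log2 units. TUBB3, ENO2 and MAP2 overlapped between the groups, with log2FC of -0.32, -0.31 and -0.15. Of 10 tested genes of Schwann and glial cells, 2 were separated higher (20.0%, against 8.24% of all genes), among them PMP22. L1CAM was separated lower (10.0%, against 8.02%). L1CAM had 303.2, 408.4 and 134.0 CPM in the controls against 91.1, 122.0 and 97.3 CPM, whereas PMP22 lay between 8.63 and 18.5 CPM in the controls and between 20.1 and 29.2 CPM after H2O2. The summed level of the glial list was 188 to 432 CPM in the controls and 149 to 185 CPM after H2O2, most of it from L1CAM. Without L1CAM the other 11 members summed to 43.1, 24 and 54.3 CPM in the controls and 69.7, 62.9 and 51.7 CPM after H2O2, so that the groups overlapped.

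Among genes that carry retinoic acid signalling, 5 of 24 tested members were separated lower (20.8%, against 8.02% of all genes) and 2 higher (8.33%, close to the 8.24% of all genes), with a median log2FC of -0.31. The nuclear receptors RARA, with 54.5, 75.7 and 45.1 CPM in the controls and 29.8, 32.1 and 22.2 CPM after H2O2, and RARG, with 42.8, 45.5 and 48.3 CPM against 31.3, 34.7 and 23.6 CPM, were both below. STRA6, which imports retinol, had a log2FC of -0.70. RET, a receptor kinase that ATRA induces in neuroblastoma cells, had 4038.5, 4335.7 and 2954.1 CPM against 2124.8, 2365.7 and 1007.9 CPM. CYP26B1, the enzyme that degrades retinoic acid, had 1844.8, 2293.8 and 524.9 CPM against 323.0, 430.4 and 21.9 CPM. In CYP26B1 control 3 lay nearer to the first treated libraries than to its own group, and treated library 3 was the lowest by far. The separated higher members were both enzymes on the path to retinoic acid. RDH10, which oxidises retinol, had 6.79, 5.18 and 6.76 CPM against 19.5, 18 and 12.4 CPM (log2FC 1.41 ± 0.24, SE; FDR 0.224, edgeR), and ALDH1A2 had 2.65, 1.12 and 2.66 CPM against 9.07, 7.06 and 3.00 CPM. ALDH1A3, which like ALDH1A2 makes retinoic acid, overlapped with 4.43, 4.08 and 5.41 CPM against 3.53, 2.94 and 5.23 CPM (log2FC -0.25).

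By count of separated members, genes of the oxidative stress responses were near the 8.24% higher and 8.02% lower of all genes, or below them. Their ratios depended on the control used. The median log2 ratio of the antioxidant genes was 0.49 to controls 1 and 2 but -0.30 to control 3. For the p53 targets it was 0.32 and -0.23. Of 32 tested antioxidant and NRF2 genes, 3 were separated higher (9.38%) and 3 lower (9.38%). The higher ones were the aldo-keto reductases AKR1C1, AKR1C2 and AKR1C3, which are neighbouring near-identical copies whose reads may be shared. AKR1C1 had 4.22, 3.22 and 6.02 CPM in the controls and 8.06, 7.65 and 7.37 CPM after H2O2. Among the lower ones were ME1 and SLC7A11, with log2FC of -0.27 and -0.30. Other well-known NRF2 targets such as HMOX1, NQO1 and GCLM overlapped between the groups. Of 23 p53 targets, only TP53INP1 was separated, lower (4.35%), with a log2FC of -0.17. Of 18 heat shock and unfolded protein response genes, HSPH1 (log2FC 0.42) and HSP90B1 (log2FC 0.12) were higher (11.1%) and none lower. Of 24 cell cycle genes, 2 were lower (8.33%, close to the 8.02% of all genes) and none higher. PLK1 had 23, 31.9 and 23.5 CPM in the controls and 10.3, 10.5 and 17.9 CPM after H2O2, and CCND1 had a log2FC of -0.33.

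Immediate early genes, the first genes that growth signals switch on, stood lower in 6 of 12 tested members (8.02% of all genes) and higher in 2 (16.7%, against 8.24%). EGR1, a zinc finger factor induced by growth signals, had 60.3, 67.7 and 17.2 CPM in the controls and 11.1, 13.9 and 5.31 CPM after H2O2. Control 3 was much closer to the treated libraries than to controls 1 and 2, with a log2 ratio of -0.76 rather than -2.66. EGR2, EGR3, FOS, IER2 and NR4A1 were the other lower members, and the gap of EGR2 was only 0.0017 log2 units. FOSL2 was higher, with 23.6, 22.4 and 18 CPM against 26.6, 27.6 and 45.6 CPM. MYC was at the edge of the rule, with 2.63, 1.49 and 4.30 CPM against 4.45, 4.31 and 27.3 CPM. Control 3 lay just below treated library 2, and treated library 3 stood far above the rest.

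Immune genes were few and mostly low. Of 21 tested innate immune genes, 2 were separated higher (9.52%, close to the 8.24% of all genes) and none lower (8.02% of all genes). CCL2, a monocyte chemokine, had 2.25, 1.47 and 3.60 CPM in the controls and 20.3, 16 and 7.43 CPM after H2O2 (log2FC 2.57 ± 0.45, SE; FDR 0.242, edgeR). ICAM1, an adhesion molecule for leukocytes, had 0.715, 0.108 and 0.376 CPM against 2.73, 2.38 and 0.944 CPM. The other 19 overlapped. Of 8 immunity-related genes that the study singled out from these samples, so that their direction is no independent evidence, 3 passed the filter, each through the treated libraries alone, so that the filter fixed their position above the controls and this count is no result. Besides C8orf4 these were the complement inhibitor CFI, with 0, 0 and 5 raw counts in the controls and 143, 49 and 11 after H2O2, and the cytokine IL33, with 1, 0 and 8 against 111, 62 and 43. In both genes control 3 held most of the control counts. The others stayed under the filter, for example IL7R with 0, 0 and 6 raw counts against 23, 6 and 20 and CCHCR1 with 0, 0 and 0 against 20, 0 and 30.

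Axon guidance genes were separated in both directions. Of 39 tested, 6 were higher and 8 lower, against 8.24% and 8.02% of all genes, and SEMA3E passed the filter through the treated libraries alone. The higher members were the semaphorins SEMA3A, SEMA3C, SEMA3D and SEMA3E and their co-receptors NRP1 and NRP2, whereas the lower members were SLIT2, ROBO2, UNC5B, PLXNB1, EPHB2, EPHB3, EFNB2 and EFNB3. SEMA3D had 1.20, 0.324 and 1.38 CPM in the controls and 5.86, 4.01 and 4.15 CPM after H2O2. NRP2, the other neuropilin, had 2.00, 2.16 and 1.30 CPM against 2.60, 2.76 and 6.79 CPM, so that treated library 3 stood above the rest. SLIT2, a repellent ligand, had 35.2, 24.5 and 18.1 CPM against 13, 12.7 and 3.99 CPM, and EPHB3 had 32.3, 35.5 and 23.4 CPM against 14.7, 17.5 and 12.2 CPM. Among the members that the rule picked, the class 3 semaphorins and neuropilins were higher and the ephrins and Eph receptors of the B class were lower. Any members of these families that overlapped are left out of this tally, so it describes the separated genes only. Of these only NRP1 was called. Of 38 synapse genes, 3 were higher and 3 lower (7.89% each), among them the vesicle protein VAMP1 (log2FC 0.63) and the adhesion protein NRXN2 (log2FC -1.12).

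Matrix, adhesion and growth factor genes also split, and their shares stand against 8.24% higher and 8.02% lower over all genes. Of 32 extracellular matrix genes, 3 were higher (9.38%) and 7 lower (21.9%). COL4A1, a basement membrane collagen, had a mean of 5.25 ± 1.66 CPM in the controls and 14.7 ± 1.76 CPM after H2O2 (SD, n = 3), whereas the matrix glycoprotein FBLN1 had 73.2, 110.2 and 76.5 CPM against 38.9, 39.1 and 49.5 CPM. Of 26 integrin and adhesion genes, 5 were higher (19.2%), led by ITGA4 and ITGA6, and 4 lower, led by CNTN2 with a log2FC of -0.98. Of 32 growth factors and receptors, 9 were higher (28.1%) and 5 lower (15.6%). KIT, the receptor for stem cell factor, had 0.50, 0.842 and 0.532 CPM in the controls and 3.71, 3.94 and 4.66 CPM after H2O2 (log2FC 2.72 ± 0.32, SE; FDR 0.0755, edgeR). Its ligand KITLG had 29.9, 14.5 and 33.9 CPM against 58.9, 48.5 and 46.6 CPM, so both the receptor and the ligand were separated. FGFR2, a fibroblast growth factor receptor, had 0.626, 0.475 and 0.344 CPM against 2.05, 1.5 and 2.73 CPM. The platelet-derived growth factor PDGFC was higher (log2FC 2.09), and the receptors PDGFRA and PDGFRB lower (log2FC -0.53 and -0.62). Of 30 vascular development genes, 6 were higher and 6 lower (20.0% each). TGFB2 and EDN1, the vasoconstrictor endothelin-1, were among the higher, and ECE1, the enzyme that activates endothelin, had 85.3, 106.2 and 62.5 CPM in the controls against 37.1, 45.4 and 47.8 CPM.

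The study itself singled out 13 genes as shared by both experiments or their pathways, and since it chose them on these samples their directions are no independent evidence. Of these, 5 were separated higher (38.5%, against 8.24% of all genes), namely LIF, TLR4, ALDH1A2, RDH10 and AKR1C3, and 4 lower (30.8%, against 8.02%), namely CD38, PDK1, PDGFRA and FZD7. TLR4, a receptor of innate immunity, had 0.250, 0.108 and 0.329 CPM in the controls and 2.04, 1.81 and 0.574 CPM after H2O2. FZD7 had 91.5, 135.6 and 89.7 CPM against 52.4, 64.2 and 44.7 CPM. CXCR4, NGFR, FGF14 and TNC overlapped, in CXCR4 because control 3 at 46.1 CPM lay above the first treated libraries at 33.6 and 32.8 CPM. Of 19 noncoding genes and pseudogenes that the study named, only 2 passed the filter and neither was separated.

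**Figure D4:**
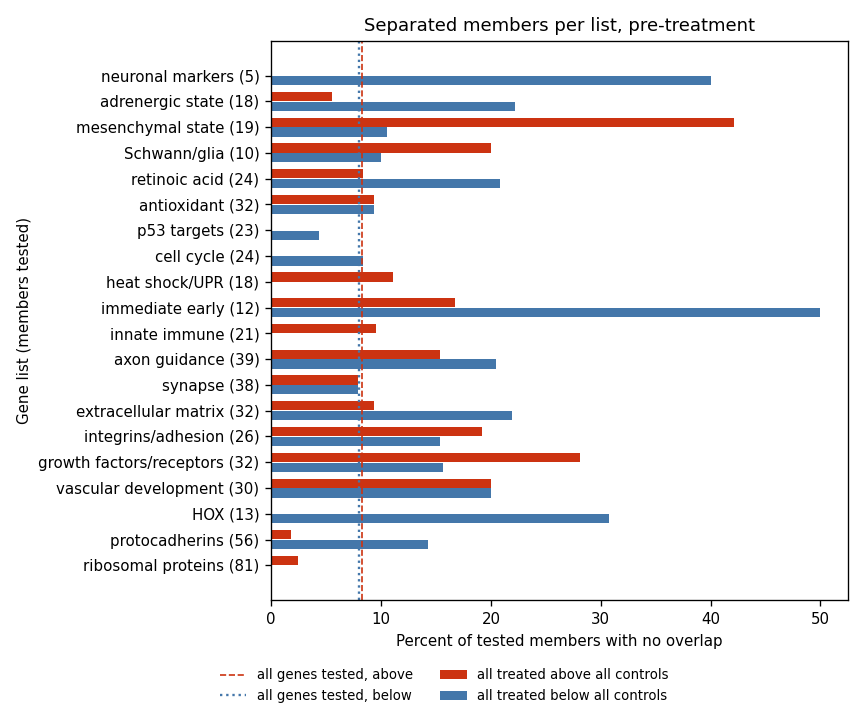
Percent of the tested members of each list that lie above all controls (red bars) or below all controls (blue bars) in all treated libraries, with the number tested in brackets. The dashed and dotted lines give the same shares over all 24743 genes tested (8.24% and 8.02%). Mesenchymal-state genes reach 42.1% (8 of 19) on the higher side and 6 of the 12 immediate early genes are on the lower side.

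Gene families defined by name gave further counts, which stand against 8.24% higher and 8.02% lower over all genes. Of 13 HOX genes tested, 4 were lower (30.8%, against 8.02% of all genes) and none higher, but HOXD11 and HOXD13 passed the filter through the controls alone. HOXC6 had 10.1, 11 and 9.31 CPM in the controls and 7.19, 7.01 and 4.73 CPM after H2O2. Of 56 protocadherin genes, 8 were lower (14.3%) and 1 higher (1.79%), although 55 of the 56 had a log2FC below 0. Their clusters share exons, so reads may be split among members, and the median log2 ratio was -1.14 to controls 1 and 2 but 0.27 to control 3. Ribosomal protein genes showed the same split with the opposite sign. Of 81 tested, 2 were higher (2.47%) and none lower, with a median log2 ratio of 0.90 to controls 1 and 2 and -0.33 to control 3, and their summed level was 58476 CPM in control 3, above the 41397 to 50809 CPM of the treated libraries. Replication-type histone genes had median log2 ratios of 0.86 to controls 1 and 2 and -0.75 to control 3. Of 75 tested, 2 were lower (2.67%), among them the pseudogene HIST1H3PS1, and none higher. Of 32 collagen genes 5 were higher (15.6%) and 7 lower (21.9%), and of 36 kinesins 5 (13.9%) and 4 (11.1%). Of 63 potassium channels 5 were higher and 5 lower (7.94% each), and of 512 zinc finger genes 72 (14.1%) and 47 (9.18%). Among the 13 mitochondrial mRNAs only MT-ND6, the only one encoded on the light strand, was separated, with 12.8, 15.9 and 13.1 CPM in the controls and 30.5, 26.4 and 33.1 CPM after H2O2.

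The co-treatment libraries were not used to choose these genes and have their own controls, so they give a separate reading. Over the 21930 genes tested in both experiments, 49.9% had a log2FC above 0 in the co-treatment experiment. The share was 56.6% among the 1912 genes that were higher in the pre-treatment experiment and 28.3% among the 1885 that were lower. Of the higher genes, 215 (11.2%) were also separated higher under co-treatment and 151 (7.90%) separated lower, against 6.63% and 7.29% of all genes tested in both. Over all 22089 genes tested in that experiment the shares were 6.65% and 7.3%, and 3.73% and 4.41% were higher and lower at an unadjusted p below 0.05. Of the lower genes, 202 (10.7%) were separated lower and 47 (2.49%) higher. For wider gaps the share was larger. Among the 293 higher genes with a gap of at least 0.5 log2 units 23.2% were separated higher and 4.44% lower under co-treatment.

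In the co-treatment experiment 132 of 22089 genes were called (0.598%), 74 higher (0.335%) and 58 lower (0.263%), with an FDR below 0.05 and a log2FC of more than 0.6 in size. Of these, 30 higher calls and 1 lower call, LPPR4, were genes separated higher in the pre-treatment experiment, and 11 lower calls and 2 higher calls, ENC1 and GPR35, were genes separated lower. VIM was among them, with 9.77, 5.69 and 6.13 CPM in the co-treatment controls and 15.3, 15.2 and 17.6 CPM with H2O2 (log2FC 1.16, FDR 0.0272, edgeR). SSTR2, a somatostatin receptor, had 3.49, 1.21 and 3.54 CPM against 11.4, 8.79 and 11.1 CPM in the pre-treatment experiment, and 2.31, 1.52 and 2.54 CPM against 8.49, 12.5 and 15.5 CPM in the co-treatment experiment (log2FC 2.53, FDR 0.00136, edgeR). SAMD11, a nuclear protein of the retina, rose by a log2FC of 2.97 under co-treatment (FDR 0.000205, edgeR) and had 2.93, 0.993 and 5.37 CPM against 11.8, 9.34 and 14.9 CPM in the pre-treatment libraries.

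Other genes separated higher in the pre-treatment experiment rose under co-treatment too. HAS2, which synthesises hyaluronan, had 0.125, 0.0216 and 0.172 CPM in the pre-treatment controls and 0.999, 0.951 and 0.906 CPM after H2O2, and rose under co-treatment by a log2FC of 2.59 (FDR 0.0325, edgeR). KITLG, EDNRA (an endothelin receptor), NTRK3 (the neurotrophin-3 receptor), HBEGF (a ligand of the epidermal growth factor receptor), CCL2, MGP, ANXA2 and PMP22 rose under co-treatment as well. On the lower side, PDGFRA fell under co-treatment (log2FC -1.15, FDR 0.00504, edgeR), as did the orphan nuclear receptor NR2F1 (log2FC -1.04, FDR 0.0119), the Wnt receptor FZD7 (log2FC -0.83, FDR 0.0285), the growth factor signalling inhibitor SPRY1 (log2FC -1.11, FDR 0.00504) and the potassium channel KCNK1 (log2FC -0.80, FDR 0.0266). NR2F1 had 25.9, 49.8 and 23 CPM in the pre-treatment controls and 12.8, 17.2 and 16.4 CPM after H2O2. Of the 12 higher genes with the widest gaps, 11 had a log2FC above 0 under co-treatment and 6 were separated higher, and of the 12 lower genes 11 had a log2FC below 0 and 3 were separated lower.

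Whether a gene responded differently in the 2 experiments was tested by an interaction term in 1 fit to the 12 libraries. At an FDR below 0.05, 7 of 24407 genes differed (0.0287%, with 8.94% at an unadjusted p below 0.05), and all 7 were separated in the pre-treatment experiment, 6 higher and 1 lower. The test used the same pre-treatment libraries as the rule, so this overlap is no independent evidence. COL3A1 had 25.9, 28.9 and 29.8 CPM with H2O2 in the co-treatment experiment, between control 2 at 22.9 and control 1 at 38.3 CPM. The log2FC in that experiment was 0.05 ± 0.20 (SE; FDR 0.982, edgeR), and the pre-treatment increase of COL3A1 exceeded it by 2.36 ± 0.33 log2 units (SE; FDR 0.0353, edgeR). For NRP1 that excess was 3.02 ± 0.43 (FDR 0.0353), for ITGA4 2.01 ± 0.29 (FDR 0.0385) and for VCAM1 3.26 ± 0.47 (FDR 0.0353). Control levels of these genes differed between the experiments as well. Co-treatment controls had 1.48 to 2.06 CPM for NRP1, 3.12 to 4.13 CPM for ITGA4 and 0.445 to 0.665 CPM for VCAM1. Pre-treatment controls had 0.388 to 0.845, 1.72 to 2.07 and 0.250 to 0.388 CPM. C8orf4 was present in every co-treatment control at 0.422 to 0.668 CPM, a level that the pre-treatment controls did not reach, and had 0.328 to 0.702 CPM with H2O2.

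SLC8A1, the sodium-calcium exchanger NCX1, lay in opposite directions. It had 3.74, 3.65 and 4.15 CPM in the pre-treatment controls and 10.4, 9.77 and 11.3 CPM after H2O2, but 7.59, 9.01 and 8.90 CPM in the co-treatment controls and 5.86, 5.53 and 5.63 CPM with H2O2. The difference between the responses was 2.01 ± 0.22 log2 units (SE; FDR 0.00922, edgeR). ENC1, an actin-binding protein of early neural tissue, showed the reverse, with 24.6, 24.0 and 25.9 CPM against 20.3, 16.3 and 14.8 CPM in the pre-treatment experiment and 14.7, 11.8 and 11.4 CPM against 28.8, 32.8 and 35.1 CPM in the co-treatment experiment (difference -1.91 ± 0.22, SE; FDR 0.00922, edgeR). For both genes the control levels of the 2 experiments differed as well, and experiment, timing of H2O2 and batch cannot be told apart. VIM and EYA4, called in the pre-treatment experiment, did not pass this test, with FDR of 0.381 and 0.0865 (edgeR).

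**Figure D5:**
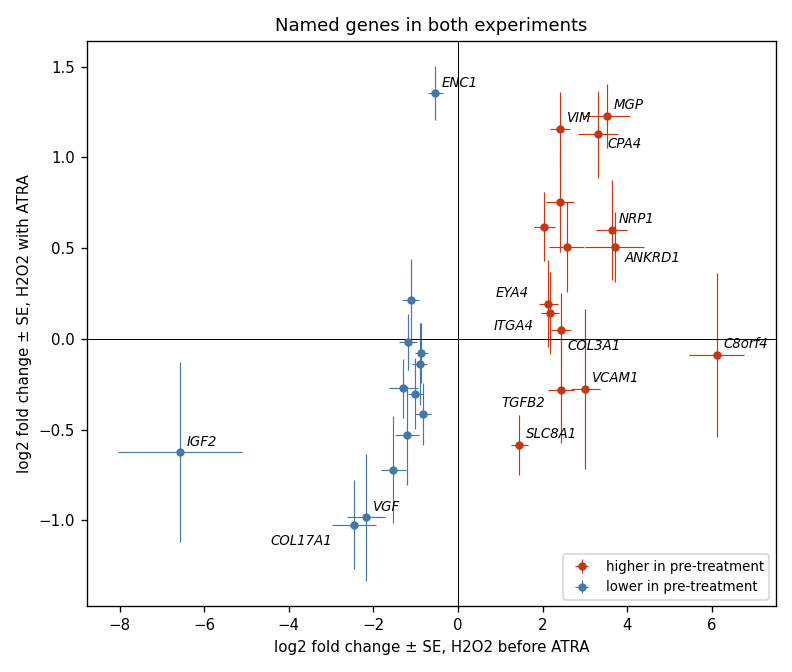
Log2 fold change with its SE for 28 named genes in the pre-treatment experiment (horizontal axis) and the co-treatment experiment (vertical axis), from separate fits with separate controls. VIM, MGP and CPA4 are above 1 on both axes, COL3A1, ITGA4 and EYA4 lie near 0 on the vertical axis, and ENC1 and SLC8A1 lie on opposite sides of 0 in the experiments.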

How the data were processed

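RNA of SH-SY5Y cells had been sequenced after ribosomal RNA depletion with a stranded total RNA kit. The authors deposited raw counts per gene symbol, 1 table per library. The submitters' processing notes name FastQC 0.11.8, cutadapt 2.10, HISAT2 2.1.0, HTSeq 0.7.2 and hg19, and the strand setting and annotation version of the counting are not given in the sources used here. Deposited tables of the authors' own comparisons (fold changes, CPM, p-values and FDR) were not used.

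Groups came from the sample labels. Rows of HTSeq totals were left out of library sizes. Genes had to reach 0.1197 CPM (0.1813 CPM for the co-treatment experiment) in 3 or more libraries, which is what 5 reads are worth in the least deep one. They were scaled by TMM and tested with edgeR 4.0.16 in R 4.3.3 (quasi-likelihood test, Benjamini-Hochberg adjustment over all genes tested). Calls needed an FDR below 0.05 and a log2FC beyond 1 (pre-treatment) or 0.6 (co-treatment). Interactions were fitted to all 12 libraries. Log2 levels used a prior count of 2. The scripts were tested on simulated data.

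Named genes were all called genes, the 12 protein-coding genes (mean of at least 5 CPM) and 4 noncoding genes with the widest gap in each direction, up to 4 separated members per list and the 5 separated genes with the smallest interaction FDR. Other genes given with values were chosen after their values were seen. Members and lists were chosen with earlier results of these data known. Coordinates on hg19, gene kinds and GC content came from GENCODE v44 lifted to GRCh37 (62.8% of symbols matched), with the GC of the longest transcript, and promoters from RefSeq. Counting intervals are exact and cover counting error only. Alternatives were limma-voom 3.58.1, DESeq2 1.42.0, edgeR's exact test, other scalings and filters, a replicate block, 1 fit over all libraries and each library left out. Some genes are not reported here.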

Additional observations from a re-analysis of the deposited data

Results flagged for a closer look

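The responses of 7 separated genes differed between the pre-treatment and co-treatment experiments by the interaction test (edgeR, FDR below 0.05, fitted to the 12 libraries). The difference in log2FC, pre-treatment minus co-treatment, was 6.14 for C8orf4 (FDR 0.0161), 3.26 for VCAM1 (FDR 0.0353), 3.02 for NRP1 (FDR 0.0353), 2.36 for COL3A1 (FDR 0.0353), 2.01 for ITGA4 (FDR 0.0385), 2.01 for SLC8A1 (FDR 0.00922) and -1.91 for ENC1 (FDR 0.00922). For all of these genes but COL3A1, the controls of one experiment did not overlap those of the other. The number of genes passing the interaction test fell to 0 without co-treatment control 2, co-treated library 2 or 3, or pre-treated library 2. It was 2058 without pre-treatment control 3.

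In a pair of noncoding genes every treated sample lay on one side of its controls in the pre-treatment experiment and on the other side in the co-treatment experiment. The difference in log2FC was 0.98 for ANKRD10-IT1 (FDR 0.317) and 0.78 for PPP1R26-AS1 (FDR 0.511, edgeR), neither of which passed the interaction test. All groups hold 3 samples, for which no test of single outlying samples was made.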

How the results depend on the processing

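The count of genes called in the pre-treatment experiment, 6 here, depended on the tool and the samples. It was 231 (133 higher, 98 lower) by edgeR's exact test, 501 (186 higher, 315 lower) by DESeq2, 300 (99 higher, 201 lower) with no filter, 61 (57 higher, 4 lower) in the fit over all 12 libraries, 1 with library size only, and 0 by limma-voom, with upper-quartile factors, with a mean of at least 1 CPM and with a replicate block. At an unadjusted p below 0.05 those fits with 0 calls held 2445, 2907, 2422 and 1957 genes. Leaving out 1 library gave 0 to 2952 calls, with 2952 (784 higher, 2168 lower) without control 3 and 0 without any other library, where 1316 to 2120 genes had an unadjusted p below 0.05. It was 4 to 6 with RLE factors, without small structured RNA loci, with filterByExpr, with robust estimation and with the GC offset, the last chosen after seeing the data.

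The separated genes numbered 442 (334 higher, 108 lower) with a gap of at least 0.5 and 5117 to 15263 with 1 library left out, the highest without control 3 and 6775 without treated library 3. Against 2039 higher and 1984 lower here, the split was 2514 and 1611 with upper-quartile factors and 2430 and 1376 with library size only. Co-treatment calls, 132 here, numbered 307 by the exact test, 308 by DESeq2, 80 with library size only, 443 with no filter and 18 to 218 with 1 library left out, namely 18 without treated 3, 49 without control 2, 54 without treated 2 and 218 without control 1. Interaction calls, 7 here, numbered 106 by DESeq2, 2 by limma-voom, 4 with library size only, 272 with no filter, 2 with a mean of at least 1 CPM and 0 to 2058 with 1 library left out. Of 2490 values of the 127 named genes under alternatives, 2221 kept direction and side of the threshold, 62 lost and 206 gained significance, and 1 reversed, HSP90B1 with a log2FC of -0.038 with the GC offset. The causes were not tested. Same-numbered pre-treatment samples deviated with correlations of -0.23, 0.03 and -0.28, which gave no sign of pairs. With control 3 far from controls 1 and 2, these correlations cannot exclude that the numbers mark pairs. The replicate block gave 0 calls before ATRA, 180 in co-treatment and 0 interactions (1603 at an unadjusted p below 0.05).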
